A study of Homo sapiens with 9 samples.

Results

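Laminin chain and basement membrane proteoglycan genes were examined in undifferentiated Caco-2 cells, a human colon adenocarcinoma line used as a model of the intestinal epithelium, after chemical activation of the hypoxia-inducible factor (HIF) pathway. The 9 genes were taken by symbol from the gene count table, which lists 60591 symbols: the alpha chains LAMA1, LAMA3 and LAMA5, the beta chains LAMB1, LAMB2 and LAMB3, the gamma chain LAMC1, and the heparan sulfate proteoglycans agrin (AGRN) and perlecan (HSPG2). All 9 were among the 15944 genes that passed the filter on low counts. Laminins are secreted trimers of an alpha, a beta and a gamma chain that polymerise into the sheet on which epithelial cells sit. Nidogens and perlecan join this sheet to the collagen IV network, and integrins and dystroglycan bind it at the basal cell surface. A trimer that holds LAMA3 and LAMB3 anchors epithelial cells through integrin alpha-6 beta-4, and LAMA5 trimers are a main laminin of the mature intestinal basement membrane.

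Cells were grown in wells and given medium with 300 µM cobalt(II) chloride (CoCl2), medium with 5 µM of the oxyquinoline derivative (OD) 4896-3212, or fresh medium (control) for 24 h. Dimethyl sulfoxide was present at 0.5% in all 3 groups. Each group comprised 3 mRNA sequencing libraries, described in the study's methods as biological replicates. Both agents are used as chemical activators of HIF signalling, and the comparisons address which basement membrane genes move with each. Both treatments were compared with the same control libraries, so these comparisons are not independent of each other.

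Libraries held 15998136 to 24209427 counts. Values are given as CPM, counts relative to library size, scaled by TMM, a method that sets the library scale from the bulk of the genes rather than from the total. TMM factors were 0.770 to 0.795 in the CoCl2 libraries, 1.11 to 1.12 in control and 1.14 to 1.15 in OD, so the scaling matters for small CoCl2 changes, as shown at the end. Of 8 intestinal epithelial markers 7 passed the filter, and their summed level was 10806 to 11334 CPM in control, 12903 to 13838 in CoCl2 and 10137 to 10692 in OD libraries. CDX1 had no count in any library, and VIL1, the microvillus protein villin, fell with CoCl2 (log2 fold change -2.45). Of 6 fibroblast or stroma markers 4 passed the filter, and they summed to 22.9 to 26.8 CPM in control, 18.4 to 20.8 in CoCl2 and 31.96 to 33.4 in OD. The 3 endothelial markers summed to 2.25 to 3.41 CPM over all libraries and the 3 immune markers to 0.0538 to 0.479 CPM. The part of these marker levels in the results was not tested. In bulk RNA, fewer cells that express a gene and less of its RNA per cell cannot be told apart.

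LAMB3 rose most of the 9 genes with both treatments. LAMA1, HSPG2 and AGRN fell most with CoCl2, and LAMA1 and HSPG2 fell most with OD. With OD, AGRN did not pass the test, while LAMB2 and LAMC1 rose. A gene is described as having risen or fallen where the edgeR quasi-likelihood test, adjusted over all tested genes, gave an adjusted p under 0.05, and as called where the log2 fold change was also above 1 in size.

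In CoCl2 against control, 1 of the 9 genes was called higher, beside 19.9% of all tested genes, and 3 were called lower, beside 23.4%. At the adjusted p alone 3 were higher (40.4% of all genes) and 6 lower (42.8%). In OD against control, 1 was called higher (9.09% of all genes) and 0 lower by edgeR (4.16%). DESeq2 also called 0 lower, and 3 were lower at an unadjusted p under 0.05. At the adjusted p alone 4 were higher with OD (32.3%) and 3 lower (33.3%). The median log2 fold change of the 9 was -0.34 with CoCl2, beside -0.049 over all tested genes, and 0.022 with OD, beside -0.010. Most expressed genes moved in these cells, and with 9 genes such shares are coarse, so nothing is read from them about the set as a whole.

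**Figure D1:**
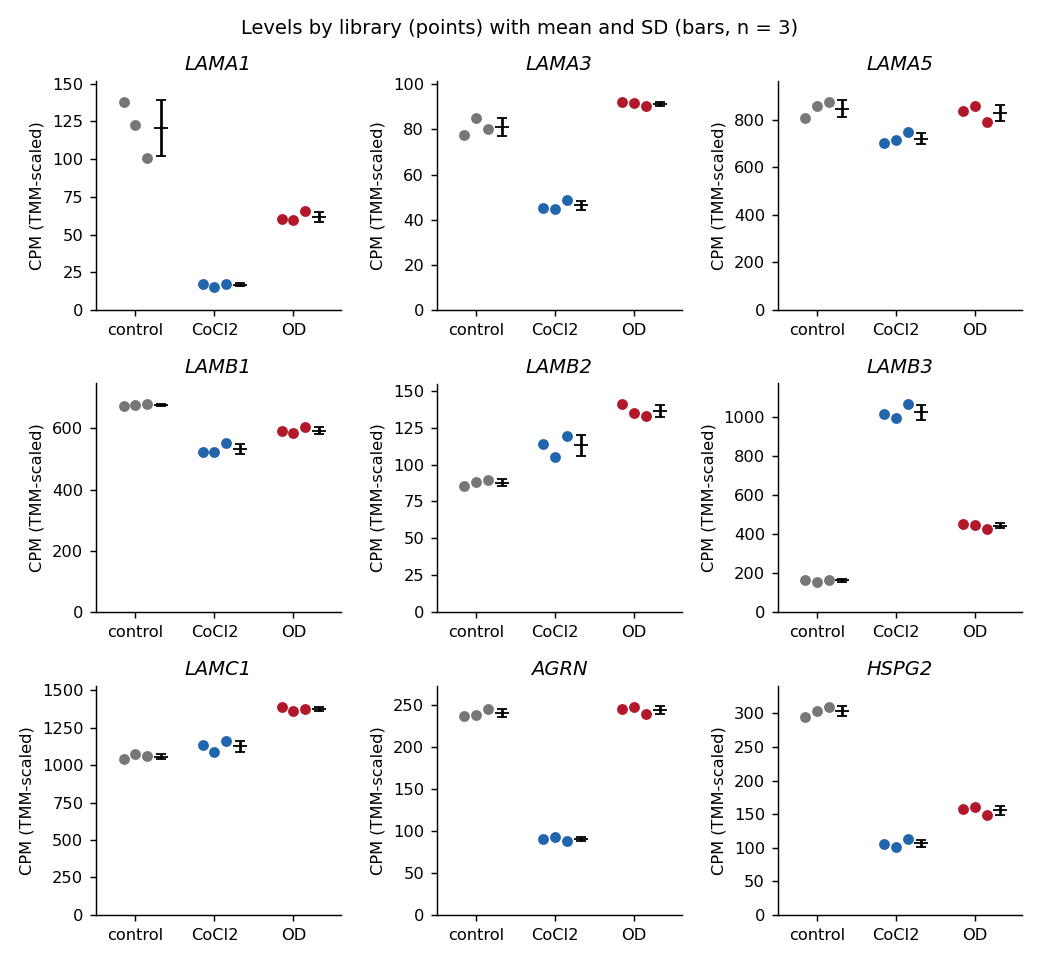
TMM-scaled CPM of each of the 9 genes (vertical axis, linear from 0, 1 panel per gene) in the 3 control, 3 CoCl2 and 3 OD libraries; coloured points are libraries and black bars the group mean with its SD. LAMB3 lies at 158 to 168 CPM in control, 431 to 454 in OD and 995 to 1068 in CoCl2 libraries, while LAMA1, AGRN and HSPG2 are lowest in CoCl2.

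Among the alpha chains, LAMA1 (GRCh38 chr18:6941742-7117797, minus strand, 63 exons in its MANE Select transcript), the chain of early embryonic basement membranes, moved most. Its counts were 2565, 2507 and 1799 in control libraries, 281, 199 and 333 in CoCl2 and 1324, 1337 and 1232 in OD. Scaled, these were 138, 123 and 101 CPM in control, 17.5, 15.4 and 17.5 in CoCl2 and 60.1, 59.3 and 65.6 in OD. The groups did not overlap, and control library 3 was the lowest of its group. LAMA1 fell 7.15-fold with CoCl2 (log2 fold change -2.84, SE 0.124, edgeR adjusted p = 2.38e-09; the same test gives the adjusted p values that follow). With OD it fell 1.96-fold (log2 fold change -0.97, SE 0.09998, adjusted p = 8.32e-06), just short of the fold threshold for a call. Without control replicate 3 the OD value was -1.08 and without OD replicate 3 it was -1.01, and both count as calls. Of the exonic bases of LAMA1, 11.1% are shared with other annotated genes on the opposite strand.

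LAMA5 (chr20:62307955-62367312, minus strand, 80 exons) and LAMA3 (chr18:23689453-23956222, plus strand, 75 exons) changed less. LAMA5 was at 806, 855 and 875 CPM in control, 701, 712 and 747 in CoCl2 and 834, 859 and 789.6 in OD libraries. It was lower in every CoCl2 library than in every control, but the shift was small (log2 fold change -0.23, SE 0.0404, adjusted p = 6.04e-07). With OD the ranges overlapped and the test was not passed (log2 fold change -0.030, SE 0.0401, adjusted p = 0.519). LAMA3 had 77.4, 85.3 and 80.2 CPM in control, 45.4, 44.8 and 48.8 in CoCl2 and 92.2, 91.5 and 90.4 in OD. It moved in opposite directions, falling with CoCl2 (log2 fold change -0.80, SE 0.0539, adjusted p = 2.54e-21) and rising slightly with OD (0.17, SE 0.0491, adjusted p = 0.00145).

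Of the beta chains, LAMB3 (chr1:209614870-209652425, minus strand, 23 exons), the beta chain that assembles with LAMA3, rose in both treatments. Counts were 3121, 3220 and 2980 in control, 16350, 12858 and 20358 in CoCl2, and 9994, 10161 and 8085 in OD libraries. In CPM these were 168, 158 and 167 in control, 1017, 995 and 1068 in CoCl2, and 454, 451 and 431 in OD. All 3 groups were separate, in the order control, OD, CoCl2. LAMB3 rose 6.25-fold with CoCl2 (log2 fold change 2.64, SE 0.0426, adjusted p = 3.20e-54) and 2.71-fold with OD (1.44, SE 0.0418, adjusted p = 3.72e-39).

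LAMB1 (chr7:107923799-108003213, minus strand, 34 exons), the widely expressed beta chain, and LAMB2 (chr3:49121114-49133118, minus strand, 32 exons), the chain of many mature basement membranes, differed in direction. LAMB1 was at 674, 676 and 679 CPM in control, 523, 523 and 551 in CoCl2 and 590.3, 585 and 605 in OD. It fell with CoCl2 (log2 fold change -0.34, SE 0.0385, adjusted p = 2.54e-12) and with OD (-0.19, SE 0.0382, adjusted p = 1.64e-05). LAMB2 was at 85.5, 88.0 and 89.9 CPM in control, 113.9, 105.3 and 119.6 in CoCl2 and 140.7, 134.8 and 133.1 in OD. It rose 1.55-fold with OD (log2 fold change 0.63, SE 0.0469, adjusted p = 7.30e-19). With CoCl2 its log2 fold change was 0.37 (SE 0.0483, adjusted p = 4.53e-10), which turned to -0.14 when libraries were scaled by total counts only.

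The gamma chain LAMC1 (chr1:183023420-183145592, plus strand, 28 exons), partner of most alpha and beta chains, was the most abundant member per length in control cells. Its levels were 1042, 1072 and 1058 CPM in control, 1132, 1088 and 1159 in CoCl2 and 1389, 1361 and 1373 in OD. LAMC1 rose 1.30-fold with OD (log2 fold change 0.38, SE 0.0382, adjusted p = 1.73e-13). With CoCl2 the log2 fold change was 0.092 (SE 0.0383, adjusted p = 0.0248), and its sign turned under upper-quartile scaling (-0.0082, adjusted p = 0.847) and total-count scaling (-0.41). The test was not passed without control replicate 1 (0.081, adjusted p = 0.0651), without control replicate 3 (0.085, adjusted p = 0.0707) or without CoCl2 replicate 3 (0.073, adjusted p = 0.109), nor without the count filter (0.026, adjusted p = 0.635), with at least 10 counts required in every library (0.063, adjusted p = 0.121) or with edgeR on the 6 control and CoCl2 libraries alone (0.078, adjusted p = 0.0668). No direction with CoCl2 is therefore given for LAMC1.

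Both proteoglycans fell with CoCl2, and they differed with OD. AGRN (chr1:1020120-1056118, plus strand, 36 exons), which carries heparan sulfate and clusters receptors at synapses and basement membranes, was at 237, 239 and 246 CPM in control, 90.6, 92.4 and 88.6 in CoCl2 and 245, 248 and 239 in OD. It fell 2.66-fold with CoCl2 (log2 fold change -1.41, SE 0.0435, adjusted p = 8.10e-39). With OD it overlapped control (log2 fold change 0.022, SE 0.0400, adjusted p = 0.640). HSPG2 (chr1:21822244-21937310, minus strand, 97 exons), the perlecan core protein, was at 295, 304 and 310 CPM in control, 105, 101 and 112 in CoCl2 and 157, 161 and 149 in OD. It fell in both treatments, 2.84-fold with CoCl2 (log2 fold change -1.51, SE 0.0446, adjusted p = 9.32e-40) and 1.95-fold with OD (-0.96, SE 0.0426, adjusted p = 1.71e-29). HSPG2 shares 11.7% of its exonic bases with LDLRAD2 on the opposite strand, and the strand setting of the counting is not given in the sources used here.

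**Figure D2:**
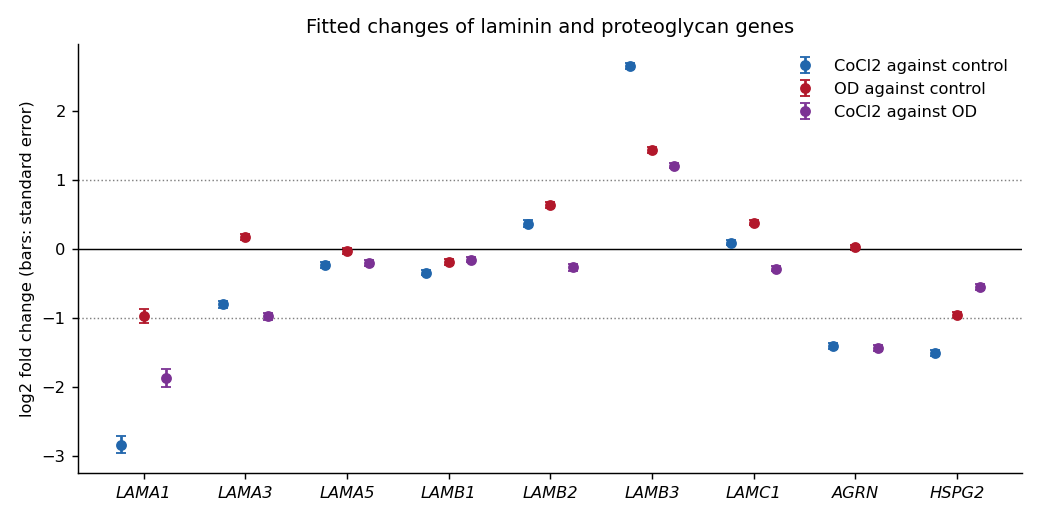
Log2 fold change (vertical axis) of the 9 genes (horizontal axis) with each agent relative to control and between the agents, with error bars of 1 standard error from the edgeR fit and dotted lines at the fold threshold of 1 in size. LAMB3 reads 2.64 for CoCl2, 1.44 for OD and 1.21 for their difference, and AGRN -1.41, 0.022 and -1.43.

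Groups did not overlap for all 9 genes in CoCl2 against control (3 higher, 6 lower), where 83.4% of all tested genes also had no overlap, and for 7 genes with OD (4 higher, 3 lower; 68.0% of all genes). The overlapping genes with OD were LAMA5 and AGRN. With 3 against 3 libraries an exact two-sided permutation test cannot give p below 0.1, and each separated gene gave exact p = 0.1. AGRN and LAMA5 with OD gave exact permutation p = 0.3 and 0.6.

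Compared directly, 8 of 9 genes were lower with CoCl2 than with OD (43.2% of all genes lower at the adjusted p) and 1, LAMB3, higher (40.2%). LAMB3 was called higher (17.5% of all genes), 2.31-fold (log2 difference 1.21, SE 0.0398, edgeR adjusted p = 3.96e-37), and LAMA1 and AGRN were called lower (23.8%). AGRN was 2.702-fold lower with CoCl2 (log2 difference -1.43, SE 0.0434, adjusted p = 3.38e-39). The log2 difference was -1.87 for LAMA1 (SE 0.130, adjusted p = 1.60e-07), -0.98 for LAMA3 (SE 0.0531, adjusted p = 8.65e-26) and -0.55 for HSPG2 (SE 0.0453, adjusted p = 2.71e-17). LAMA3 fell just short of the fold threshold and was called in 5 of 18 alternatives. Among these were the fit without CoCl2 replicate 3 (-1.02) and total-count scaling (-1.52). For LAMA5, LAMB1, LAMB2 and LAMC1 it was -0.16 to -0.29. CoCl2 and OD libraries did not overlap for any of the 9 genes, nor for 83.8% of all genes. With total-count scaling 0 of the 9 genes were called higher by edgeR and 4 lower in this comparison, against 1 and 2 with TMM. Over all 15944 tested genes, total-count scaling called 1351 higher and 6026 lower. LAMB3 then stood at 0.66.

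Per kilobase of exon, levels can be set side by side between genes. Lengths are the union of annotated exons. In control cells LAMC1 was highest at 125 CPM per kb, then LAMA5 at 59.1 ± 2.48, LAMB1 at 36.4 ± 0.130 and LAMB3 at 35.4 ± 1.20 (SD, n = 3), the last pair closer than their spread. AGRN followed at 22.4, HSPG2 at 16.7, LAMB2 at 12.8, LAMA1 at 7.61 ± 1.18 and LAMA3 at 5.59 ± 0.276 CPM per kb. LAMB3 passed LAMC1 only in CoCl2 libraries, at 221 against 133 CPM per kb. The order depends on the length used, since the exons of LAMB1 span 18592 bases in all annotated transcripts and 5650 in the MANE Select transcript. With MANE lengths LAMB1 was second in control at 119.7 CPM per kb, and LAMB3 at 255.7 was still above LAMC1 at 142 in CoCl2.

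Shares within a library do not depend on the scaling between libraries. Of the 3 beta chains per length, LAMB3 made up 41.8% ± 0.889 in control, 64.9% ± 0.740 in OD and 83.1% ± 0.0598 in CoCl2 (SD, n = 3). LAMB1 went the other way, at 43.0% ± 0.607, 21.6% ± 0.745 and 10.8% ± 0.139. With MANE lengths the LAMB3 share was 23.2, 46.2 and 69.2% and the LAMB1 share 68.0, 43.8 and 25.5%, in the same order of groups. Of the 3 alpha chains, LAMA5 was 81.7% ± 1.85 in control, 85.0% ± 0.752 in OD and 92.2% ± 0.221 in CoCl2, so it was the main alpha chain in every group. LAMA1 was 10.5% ± 1.83, 5.72% ± 0.512 and 1.94% ± 0.134 in the same groups. LAMB2 was 15.1% in control and 13.4% in OD with union lengths but 8.76% and 9.98% with MANE lengths, so its order of groups depends on the length.

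Ratios of RNA levels within a library compare single genes with each other. LAMB3 to LAMB1, per union exon length, was 0.972 ± 0.0335 in control, 3.003 ± 0.134 in OD and 7.71 ± 0.0939 in CoCl2. The size of this ratio depends on the length used for LAMB1. With MANE lengths LAMB3 was at 40.9 CPM per kb in control, 110.9 in OD and 255.7 in CoCl2. LAMB1 was at 119.7, 105.0 and 94.2 in the same groups, so LAMB3 was then well below LAMB1 in control. LAMB3 to LAMA3 was 6.35 ± 0.515 in control, 15.2 ± 0.293 in OD and 69.1 ± 0.838 in CoCl2. The groups did not overlap in either ratio. AGRN to HSPG2 was 1.34 ± 0.0152 in control and 1.44 ± 0.105 in CoCl2, with overlapping ranges, and 2.64 ± 0.0611 in OD.

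**Figure D3:**
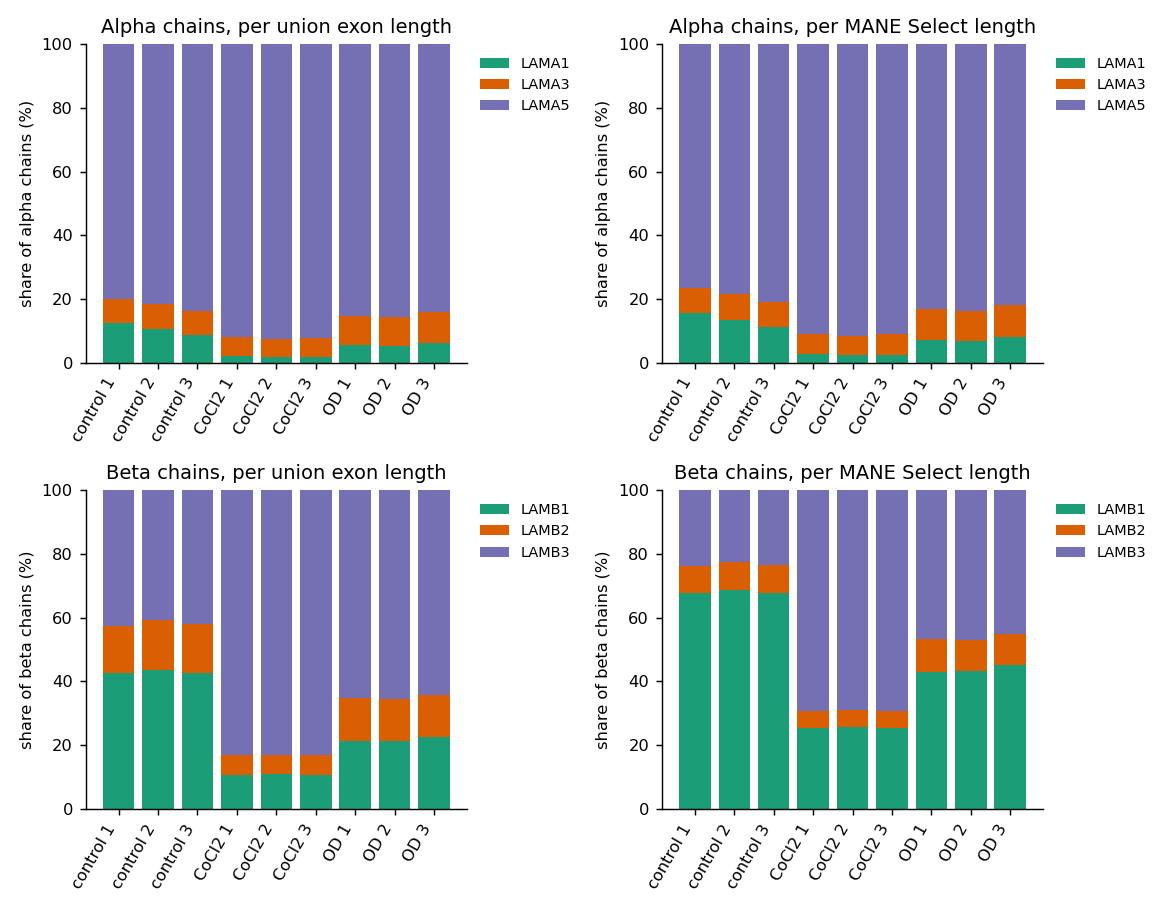
Share (percent) of each chain among the alpha chains and among the beta chains, from counts per union exon length (left) and per MANE Select length (right), as stacked bars for each of the 9 libraries. With union length the LAMB3 share is 41.8% in control, 64.9% in OD and 83.1% in CoCl2, and the LAMA1 share 10.5, 5.72 and 1.94%.

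The upstream sequences of LAMA3 and LAMB3, chains of the same trimer that moved apart with CoCl2, are shown. Of the 7 members with a sequence to search, these held the word TGACTCA, the core of AP-1 sites. The sequences are the 250 bases before a RefSeq start (GRCh38.p14), 5′ to 3′ on the gene's strand, with that word or its reverse complement TGAGTCA in capitals. The LAMA3 window is chr18:23872770-23873019 (plus strand), where the words begin 125 and 69 bases before the start. The LAMB3 window is chr1:209651375-209651624 (minus strand), with the word 67 bases before the third listed start. The windows of the other listed LAMB3 starts do not hold it. Both windows shown lie inside the longer gene models, and gene counts do not tell which start was used.
LAMA3: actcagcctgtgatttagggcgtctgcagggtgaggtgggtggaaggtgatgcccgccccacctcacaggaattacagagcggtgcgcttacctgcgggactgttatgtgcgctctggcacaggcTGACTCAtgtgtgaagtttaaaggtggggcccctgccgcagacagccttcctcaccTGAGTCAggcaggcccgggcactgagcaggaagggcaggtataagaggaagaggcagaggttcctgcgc
LAMB3: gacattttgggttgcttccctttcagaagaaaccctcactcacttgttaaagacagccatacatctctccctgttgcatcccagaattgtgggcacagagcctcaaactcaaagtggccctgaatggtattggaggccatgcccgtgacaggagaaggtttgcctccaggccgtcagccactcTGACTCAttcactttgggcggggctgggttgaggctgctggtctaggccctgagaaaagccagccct
Of all 35116 promoters of this length, 4.203% hold TGACTCA on either strand, 18.5% hold ACGTG, the core of the hypoxia response element, 32.2% hold GCGTG and 42.6% hold GGGCGG, the GC box core. RefSeq windows were found for 7 of the 9 genes, with 9 starts, but not for LAMA1 and AGRN, which were not searched. ACGTG and GCGTG were in none of these windows. GGGCGG was in all of them, with 8 occurrences in HSPG2, 5 in LAMA5, 4 in LAMB1, 3 in LAMC1 and 1 in each of the others. GC content ran from 54.0% at the third LAMB3 start to 82.8% at HSPG2 and LAMA5, against a median of 58.0% over all promoters.

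Beyond the 9 genes, 63 basement membrane genes were listed by role and 53 passed the filter. With CoCl2 7 were called higher (19.9% of all tested genes) and 19 lower (23.4%), and their median log2 fold change was -0.29, beside -0.049 over all genes. With OD 8 were called higher (9.09% of all genes) and 0 lower by edgeR (4.16%), and DESeq2 also called 0 lower. At the adjusted p alone 29 were higher with OD (32.3% of all genes) and 14 lower (33.3%). An unadjusted p under 0.05 gave the same numbers. The median with OD was 0.28, beside -0.010. Some list genes had few counts and passed the filter only through groups where they were high. When every library needed at least 10 counts, 4 were called higher and 18 lower with CoCl2 by edgeR. These stood beside 2126 and 2591 of all 12583 genes tested under that filter. With OD 5 were called higher and 0 lower by edgeR, beside 803 and 331 of all 12583 genes. With total-count scaling the CoCl2 counts were 4 higher and 24 lower, beside 1833 and 5839 of all 15944 tested genes. Between the agents, CoCl2 libraries had 4 list genes called above OD (17.5% of all genes) and 20 below it (23.8%). Those above include LAMA2 and LAMB4, which have few counts and passed the filter only through the CoCl2 libraries. Those below include PXDN, which passed only through the OD libraries. No call is read from these genes. With total-count scaling 2 list genes were called above OD and 30 below it, beside 1351 and 6026 of all 15944 tested genes.

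Among the other laminin chains, 3 of 5 passed the filter. LAMA2, the muscle and nerve chain, had 0, 2 and 0 counts in control, 31, 15 and 30 in CoCl2 and 6, 6 and 5 in OD libraries. It passed the filter only through the CoCl2 libraries, so no call is read from it. LAMB4 had 9, 8 and 9 counts in control, 17, 10 and 16 in CoCl2 and 4, 7 and 12 in OD. LAMB4 also needed the CoCl2 libraries to pass the filter, and no call is read from it. Both genes are at low levels in every library.

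Of 12 nidogen and basement membrane collagen genes 11 passed the filter, and 5, all collagen IV chains, were called lower with CoCl2 (23.4% of all genes): COL4A1 (-1.41), COL4A3 (-1.52), COL4A4 (-1.62), COL4A5 (-1.68) and COL4A6 (-1.66 on the log2 scale). COL4A2, which pairs with COL4A1, fell by 0.29, and the linkers NID1 and NID2 fell by 0.95 and 0.72. COL4A4 had opposite calls, at 11.5 ± 0.369 CPM in control, 3.70 ± 0.491 in CoCl2 and 24.3 ± 1.64 in OD (log2 fold change with OD 1.07, adjusted p = 1.98e-18). COL17A1, the hemidesmosome collagen, was low, at 8, 9 and 12 counts in control, 28, 27 and 29 in CoCl2 and 76, 66 and 65 in OD. It passed the filter only through the treated groups, and no call is read from it.

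Of 13 other matrix proteins 10 passed. TINAGL1, a laminin-binding matricellular protein, rose in both treatments, from 66.6 ± 1.71 CPM in control to 291 ± 5.19 in CoCl2 (log2 fold change 2.13, adjusted p = 4.62e-47) and 140.5 ± 8.11 in OD (1.08, adjusted p = 5.41e-30). Its order of groups was that of LAMB3. SMOC2 (-1.77), FRAS1 (-1.83), FREM2 (-1.03) and NTN4 (-1.13), a netrin that binds laminin, were called lower with CoCl2. The peroxidase PXDN, which crosslinks collagen IV, had 10, 9 and 7 counts in control, 5, 6 and 9 in CoCl2 and 28, 28 and 35 in OD. Only the OD libraries carried it past the filter, and its OD call is likewise not used.

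Among 14 laminin receptors and their anchors, all of which passed, ITGB4, the integrin beta-4 chain that binds the LAMA3 trimer, fell from 59.7 ± 4.39 CPM in control to 12.9 ± 1.31 in CoCl2 (log2 fold change -2.19, adjusted p = 3.23e-37) and rose to 94.9 ± 4.47 in OD (0.67, adjusted p = 2.39e-17). Its partner ITGA6 rose in both (0.74 and 0.61). SDC1 (syndecan-1, -2.78), LRP4 (-1.38) and DAG1 (dystroglycan, -1.21) were called lower with CoCl2. ITGA2 (1.19) and PLEC, the plectin linker to keratin (1.57), were called higher with CoCl2, and PLEC with OD too (1.09). ITGA3 was -0.97 with CoCl2 and 0.69 with OD.

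Of 13 heparan sulfate genes 11 passed, and 6 were called lower with CoCl2 (23.4% of all genes) and 0 with OD by edgeR or DESeq2 (4.16%). At the adjusted p alone 6 were higher with OD (32.3% of all genes) and 2 lower (33.3%), and an unadjusted p under 0.05 gave the same numbers. Lower with CoCl2 were XYLT1 (-2.03) and XYLT2 (-1.24), which start the chain, NDST1 (-1.09), HS2ST1 (-1.36) and HS6ST1 (-1.35), which sulfate it, and SULF2 (-1.72), which removes sulfate. EXTL3, of the same list, was called higher with CoCl2 (1.23) and fell with OD by 0.63. AGRN and HSPG2, the cores that carry such chains, also fell with CoCl2. Of 6 matrix proteases 4 passed, with MMP14, a membrane matrix protease, at 81.1 ± 1.95 CPM in control, 93.5 ± 6.65 in CoCl2 and 191 ± 0.838 in OD (log2 fold change with OD 1.24, adjusted p = 2.99e-33). MMP7 was low, at 2, 7 and 12 counts in control, 8, 14 and 14 in CoCl2 and 10, 9 and 14 in OD, with overlapping groups.

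**Figure D4:**
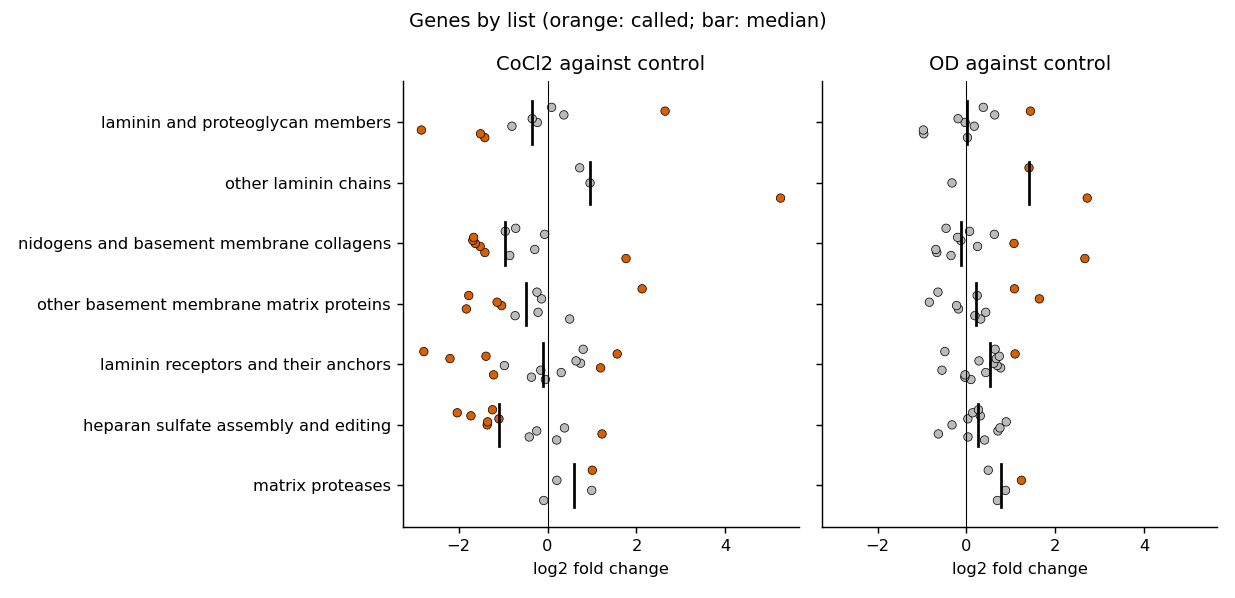
Log2 fold change (horizontal axis) of each tested gene by list, with CoCl2 on the left and OD on the right, relative to control; points are genes, orange where called, and black bars list medians. Nidogens and basement membrane collagens have a median of -0.95 with CoCl2 and -0.13 with OD.

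Scaling by total counts alone moved the median of all genes with CoCl2 to -0.55, where TMM gave -0.049. Relative to that median LAMB3 was 2.69, LAMA1 -2.79, AGRN -1.36 and HSPG2 -1.46, near their TMM values of 2.64, -2.84, -1.41 and -1.51. A change of scaling shifts all genes of a library alike, so this closeness follows from the method and is no separate test. LAMB2 and LAMC1 were 0.41 and 0.14 relative to it and -0.14 and -0.41 without that reference. The sign for these genes with CoCl2 changed with the scaling, and that of the other 7 did not.

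**Figure D5:**
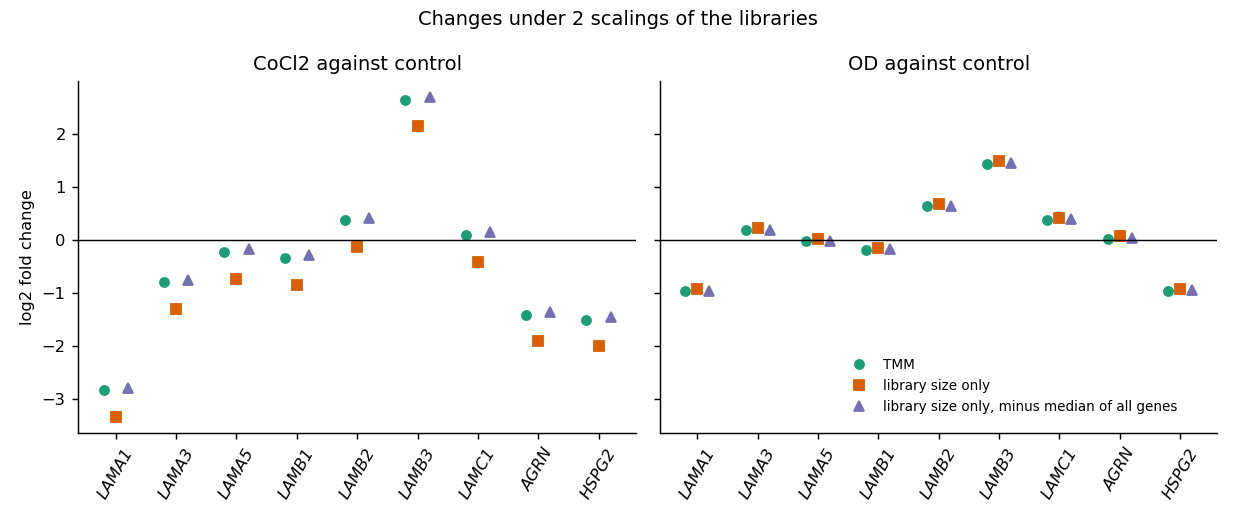
Log2 fold change of each member (vertical axis) against control for CoCl2 and OD under TMM, total-count scaling, and total-count scaling minus the median of all genes. With CoCl2, LAMB2 and LAMC1 cross 0 (0.37 to -0.14 and 0.092 to -0.41), and LAMB3 goes from 2.64 to 2.14.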

How the data were processed

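Human Caco-2 mRNA libraries (3 per group, single-end reads from a stranded kit) were analysed from the gene counts deposited by the authors. Per the submitters' processing notes and the study's methods, reads were checked with FastQC 0.11.9, trimmed with cutadapt 2.10 and mapped to GRCh38.p13 with STAR 2.7.5b, then counted on GENCODE release 34. The counting program and its strand setting are not given in the sources used here. Of 60591 symbols, 24486 had no count, and 0 sample columns were unused.

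Counts were tested with edgeR 4.0.16 (quasi-likelihood, TMM, filterByExpr) in R 4.3.3 over all 9 libraries and 15944 genes, with Benjamini-Hochberg adjustment. DESeq2 1.42.0 and other scalings, filters and left-out libraries were alternatives. The fit was tested on simulated counts for CoCl2 against control, where 200 of 200 changed genes among 13130 were recovered. Gene models came from GENCODE release 44 on GRCh38, and shares used union exon length; MANE Select length was added after seeing the data. Members and lists were chosen with earlier results of these data known. All members were named, with list genes that were called, nidogens and collagen IV genes; 1 list gene is not reported here. Permutation tests used scipy 1.17.1.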

Additional observations from a re-analysis of the deposited data

How the results depend on the processing

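Of 486 member fold changes recomputed under the alternatives, 470 kept their direction and their side of the rule for a call (adjusted p and fold together), 1 lost the call, 9 gained it and 6 reversed. At the adjusted p alone, LAMC1 with CoCl2 passed in the reported fit and not in 7 alternatives (values in the report). Reversed values were LAMC1 with CoCl2 at -0.0082 (upper-quartile scaling) and -0.41 (library size only), LAMB2 with CoCl2 at -0.14 (library size only), and LAMA5 with OD at 0.0012 (upper-quartile), 0.010 (library size only) and 0.0065 (without OD replicate 3; leaving out 1 library gave -0.056 to 0.0065). LAMB3 in CoCl2 against OD was 0.66 with library size only, below the fold threshold. Over all genes, calls with CoCl2 were 3167 higher and 3724 lower with TMM and 1833 and 5839 with library size only. In OD against control, 5 list genes rather than 8 were called when every library needed at least 10 counts. Of all 12583 genes tested under that filter, 803 were called higher and 331 lower. In the same comparison, leaving out 1 library gave 1 to 2 members called (2 without control replicate 3 or OD replicate 3, where LAMA1 crossed the fold threshold). A replicate block left the numbers of members called at 4, 1 and 3 in the 3 comparisons. Deviations from group means correlated at -0.00403 to 0.0362 for libraries with the same number and at -0.0402 to 0.0171 for the others. All values were near 0, and they do not settle whether the numbers pair the samples.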

Other observations

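By the root mean square difference of centred log2 CPM over the 9 libraries, the gene with the profile most like LAMB3 was SESN2, a stress-induced sestrin (0.0542), and the most like among the basement membrane lists was TINAGL1 (0.221). The nearest gene to LAMA1 was EHHADH (0.103), a peroxisomal fatty acid oxidation enzyme, with SDC1 (0.232) nearest in the lists. AGRN was nearest to NT5DC2 (0.0522) and, in the lists, to COL4A6 (0.116), and HSPG2 to RRP1B (0.0487) and NTN4 (0.175). LAMB1 was nearest to UFSP2 (0.0282) and, in the lists, to LAMA5 (0.0827). These are descriptions over 9 libraries in 3 groups, with no test.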
